A study of Mus musculus with 4 samples.

Results

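The genes of plasminogen activation and coagulation described here were 9 of the 21154 genes that the arrays measured under a RefSeq name: the plasminogen activators Plau and Plat, the urokinase receptor Plaur, the coagulation initiator F3 with its inhibitors Tfpi and Tfpi2, the protein C pathway receptors Thbd and Procr, and the cross-linking factor subunit F13a1. They were chosen by name, with earlier results of these data known. Every probe whose accession maps to one of them was taken, which gave 13 probes. The samples were mouse mesenchymal stromal cells (MSCs) in primary culture, at passage 5, that had received a short hairpin RNA by retrovirus. Each of the 3 shIslr samples carried its own hairpin against Islr, which encodes Meflin, a cell surface and secreted protein of stromal cells. The shControl sample carried a control hairpin and was the only one of its kind, so each hairpin is 1 replicate of the knockdown and the control has no replicate. All 4 cultures were transduced. The mouse strain, the number of animals and the vector's promoter are not given in the sources used here. Nor is whether the cultures came from 1 preparation. The p-values rest only on the spread between the 3 shIslr arrays, as the control has no replicate. That spread may be technical, and cannot be told apart from differences between the hairpins.

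Plasminogen is a circulating proenzyme that urokinase (Plau) and tissue-type activator (Plat) cleave to plasmin, the protease that dissolves fibrin and degrades other matrix proteins. The urokinase receptor holds urokinase at the cell surface, and serpins inactivate both activators. Tissue factor, the product of F3, starts coagulation when stromal cells meet blood, Tfpi and Tfpi2 encode inhibitors of the early steps, thrombomodulin (Thbd) and the protein C receptor (Procr) turn thrombin towards an anticoagulant pathway, and factor XIII cross-links fibrin.

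Signals below are the processed spot intensity divided by the array's 75th percentile, so that a relative signal of 1 is the 75th percentile of that array. Differences are log2, hairpin minus control, and means over the 3 hairpins are given ± SD (n = 3) against the single control array. The 75th percentile was an intensity of 414.7 to 435.3 on the shIslr arrays and 442.5 on the shControl array, and 59305 features were read. The share well above background was 49.4% to 53.8% on the shIslr arrays and 50.9% on the shControl array, and no feature was saturated. The target gene Islr had relative signals of 0.0265, 0.162 and 0.00794 on hairpins 1, 2 and 3, against 1.03 on the shControl array, and was above background on hairpin 2 and the control array. All 12 markers of mesenchymal stromal cells were above background on all 4 arrays. Of 10 endothelial markers 6 were below background on all 4 arrays (Cdh5, Tek, Tie1, Emcn, Cldn5 and Robo4), while Kdr, Egfl7, Pecam1 and, on 3 arrays, Esam were above. Of 12 macrophage and blood cell markers 8 were below background on all 4 arrays, Ptprc, Adgre1 and Lyz2 among them, and Itgam, Csf1r, Cd68 and C1qb were above. The hepatocyte marker Alb and the platelet marker Pf4 were below background on all 4 arrays.

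Of the 9 genes, 8 had a probe well above background on the shControl array or on all 3 shIslr arrays and entered the test. Tfpi entered it through the control array, and Tfpi2 was not well above background on any array. Plaur and F3 lay above the control on all 3 hairpins, Plat and F13a1 lay below it on all 3, and Plau, Procr, Tfpi and Thbd lay on both sides. None of the 8 passed limma's test over 13567 genes (limma adjusted p between 0.866 and 0.997), and 1, Plat, had an unadjusted p under 0.05. The target Islr did not pass either, with a mean log2 difference of -4.98 (limma adjusted p = 0.964) and hairpins 1 and 3 below background. A gene that did not pass is therefore not shown to be unchanged. Over all genes tested, 0.346% passed (0% higher in shIslr and 0.346% lower), and 4.83% had an unadjusted p under 0.05 (1.52% higher and 3.31% lower). None of the 8 was at least 2-fold from the control on all 3 hairpins, as 0.236% of genes were in the higher and 1.69% in the lower direction. The 2 of 8 higher and 2 of 8 lower on all 3 hairpins (25% each) stand beside 27.6% and 24.6% of all genes, and the 4 of 8 on both sides beside 47.8%, so the members' shares were near those of all genes. The median mean difference of the 8 was -0.03, against 0.01 over all genes. All 3 differences of a gene share the control array.

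**Figure D1:**
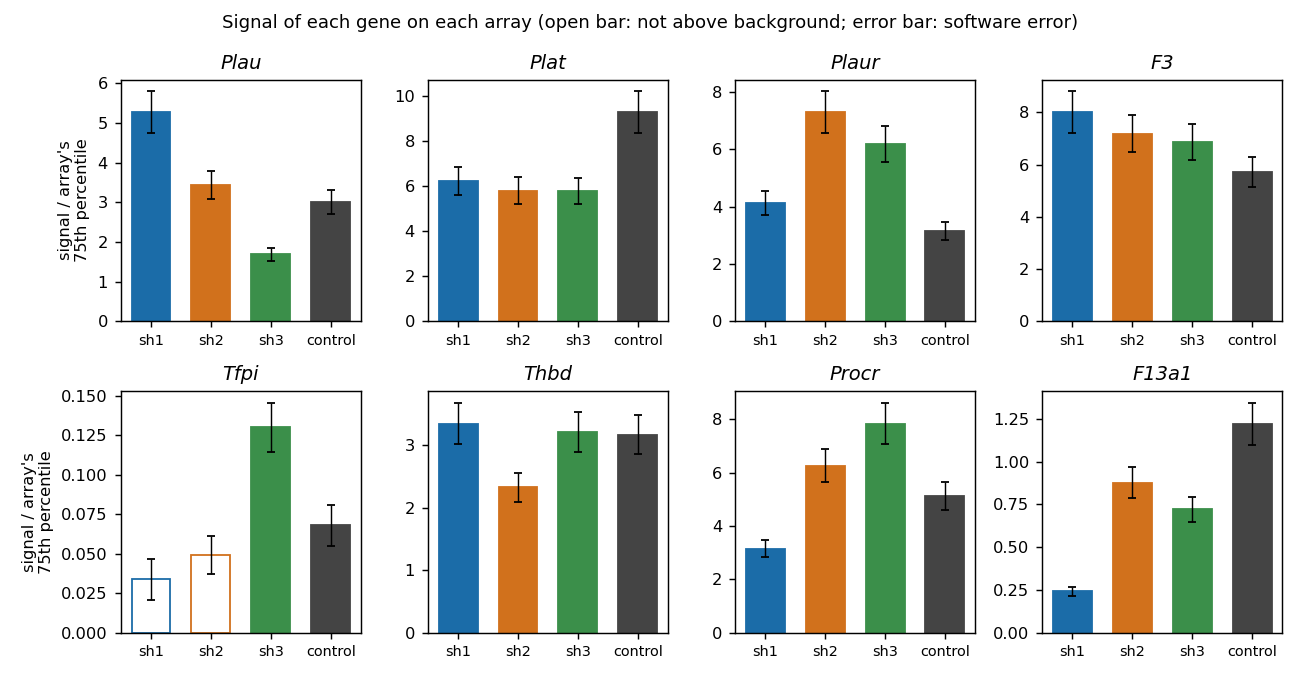
Bars give the signal of 8 genes on each array as a multiple of that array's 75th percentile, with shIslr hairpins 1 to 3 (sh1 to sh3) left of the control, an error bar of the software's error estimate, and an open bar where the probe was not above background. Plat is lower on all 3 hairpins than on the control, Plaur and F3 are higher on all 3, F13a1 is at 0.244 on hairpin 1, and Plau and Procr order the hairpins in opposite directions.

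Plat, the gene of tissue-type plasminogen activator, had the most uniform difference of the 9. Its relative signal was 6.23, 5.81 and 5.79 on hairpins 1, 2 and 3, against 9.29 on the shControl array. The 3 hairpin arrays lay close together and all below the control. Its mean log2 difference was -0.64 ± 0.06, a level 1.56-fold lower in shIslr cells (limma unadjusted p = 0.0213, adjusted p = 0.866). The spread of the hairpins was far smaller than the difference, but it leaves out the error of the control array, which all 3 differences share. The software error of each difference was 0.20, and the limma SE of the mean difference was 0.19. Of the 12716 genes above background on all 4 arrays, 92.9% had at least as wide a range between hairpins. Of these genes, 1.35% were at least as far below the control on all 3 hairpins as Plat on its nearest (-0.58). In bulk cultures, fewer cells that express a gene and less RNA per cell cannot be told apart.

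Plau, the gene of urokinase, differed between the hairpins more than from the control. Its relative signal was 5.27, 3.44 and 1.69 on hairpins 1, 2 and 3, against 3.01 on the shControl array. Hairpin 1 was clearly above the control, hairpin 3 clearly below it and hairpin 2 close to it, so the groups overlap. The log2 differences were 0.81, 0.19 and -0.84, with a mean of 0.05 ± 0.83 (limma adjusted p = 0.997). Between the highest and the lowest hairpin the level differed 3.12-fold, and 2.52% of the genes above background on all 4 arrays had at least as wide a range between hairpins. The mean lay close to hairpin 2 and far from hairpins 1 and 3.

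Plaur encodes the cell surface receptor of urokinase. Its relative signal was 4.14, 7.30 and 6.20 on hairpins 1, 2 and 3, against 3.14 on the shControl array. All 3 hairpin arrays were above the control, hairpin 2 by the most and hairpin 1 by the least. The log2 differences were 0.40, 1.22 and 0.98, with a mean of 0.87 ± 0.42, which is 1.82-fold higher in shIslr cells (limma unadjusted p = 0.0738, adjusted p = 0.964). Hairpin 2 was past 2-fold, as were 1.88% of all genes in the higher direction on that array. At least as far above the control on all 3 hairpins as Plaur on hairpin 1 were 2.53% of genes. The genes whose 3 differences lay closest to those of Plaur, by Euclidean distance over the 3 hairpins among 12715 genes, were Tk1 (0.43, 1.19 and 0.97) and E2f7 (0.29, 1.23 and 0.90).

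Serpine2, the gene of protease nexin 1, which inhibits urokinase and thrombin, had 5.48, 2.63 and 7.39 on hairpins 1, 2 and 3, against 2.73 on the shControl array. It was above the control on hairpins 1 and 3 and level with it on hairpin 2. Serpini1, the gene of the tissue-type activator inhibitor neuroserpin, was a dim probe with 0.0666, 0.0867 and 0.103 on hairpins 1, 2 and 3, against 0.174 on the shControl array. It was lower on all 3 hairpins, with a mean log2 difference of -1.05 ± 0.32 (limma unadjusted p = 0.0223, adjusted p = 0.881). With normexp background correction and quantile normalization the mean was -0.49.

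**Figure D2:**
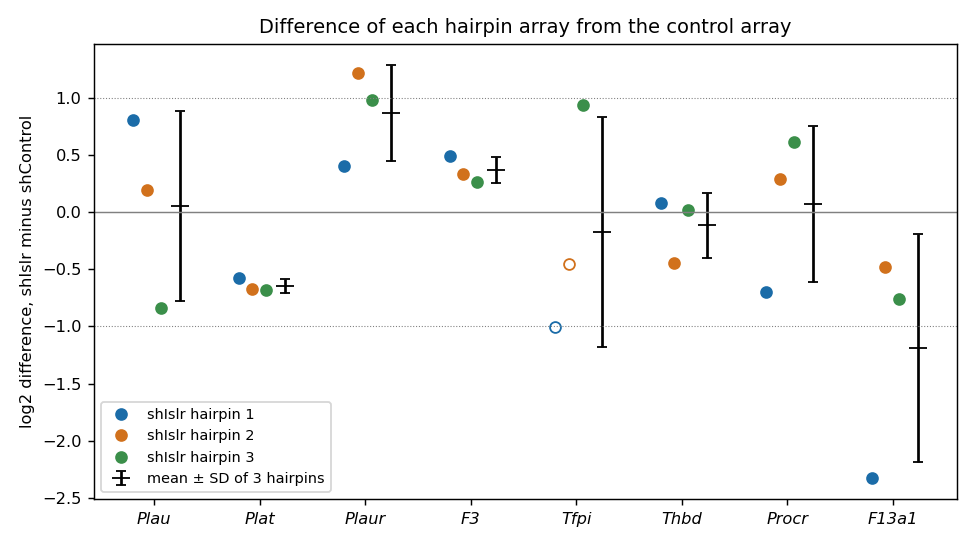
Points give the log2 difference of each shIslr hairpin from shControl for 8 genes, open where 1 side was not above background, and the black marks give the mean ± SD of the 3 hairpins (n = 3). Dotted lines mark 2-fold. The 3 points of Plat lie between -0.68 and -0.58, while those of Plau run from -0.84 to 0.81.

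The RefSeq promoter table (build GRCm38.p6) matched 6 of the 9 genes. The 250 bases before the transcription start are shown for the 3 matched genes that lay on 1 side of the control on all 3 hairpins. Letters in capitals match AP-1 (TGANTCA) or Sp1 (GGGCGG), searched on both strands. The TATAAA motif and the NF-kB motif were searched too and had no match in these 3 windows. Plaur lies on the plus strand at chr7:24462233-24462482, F3 on the plus strand at chr3:121723287-121723536 and F13a1 on the minus strand at chr13:37050245-37050494.
Plaur: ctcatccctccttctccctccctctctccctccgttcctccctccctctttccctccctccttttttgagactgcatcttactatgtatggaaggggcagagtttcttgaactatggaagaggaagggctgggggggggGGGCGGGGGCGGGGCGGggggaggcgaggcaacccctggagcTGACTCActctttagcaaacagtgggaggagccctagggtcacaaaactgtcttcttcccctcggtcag
F3: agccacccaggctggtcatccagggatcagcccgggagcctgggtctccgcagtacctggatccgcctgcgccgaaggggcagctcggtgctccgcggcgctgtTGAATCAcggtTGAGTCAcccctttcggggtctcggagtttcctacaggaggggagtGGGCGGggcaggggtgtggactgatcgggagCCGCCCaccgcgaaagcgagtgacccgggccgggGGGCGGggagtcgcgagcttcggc
F13a1: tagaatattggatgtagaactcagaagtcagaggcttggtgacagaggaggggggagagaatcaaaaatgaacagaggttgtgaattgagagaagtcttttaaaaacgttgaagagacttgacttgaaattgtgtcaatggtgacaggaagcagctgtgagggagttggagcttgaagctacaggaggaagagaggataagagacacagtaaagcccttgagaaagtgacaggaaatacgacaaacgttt

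The Plaur window held 1 AP-1 match, 69 to 63 bases before the start, and 3 Sp1 matches in 1 run, of which 2 share a base. The F3 window held 2 AP-1 matches, 146 to 140 and 135 to 129 bases before the start, and 3 Sp1 matches, 1 of them on the other strand. The F13a1 window held neither motif. Of 32851 windows of this length in the table, 6.75% held an AP-1 match and 32.7% an Sp1 match. The window of Procr, which lay on both sides of the control, also held 1 AP-1 match, as did 1 of the 3 windows of Tfpi2. A match of letters is a description of the window and says nothing about binding in these cells.

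F3, the gene of tissue factor, was measured by 2 probes. The brighter one had relative signals of 8.01, 7.19 and 6.86 on hairpins 1, 2 and 3, against 5.71 on the shControl array. The other had 0.822, 0.766 and 0.701 on hairpins 1, 2 and 3, against 0.640 on the shControl array. On both probes all 3 hairpins were above the control and had the same order, with hairpin 1 highest. The mean log2 difference was 0.36 ± 0.11 on the brighter probe, which is 1.29-fold higher in shIslr cells (limma unadjusted p = 0.136, adjusted p = 0.964), and 0.25 ± 0.12 on the other. The smallest differences, 0.27 and 0.13 on hairpin 3, compare with a software error of a difference of 0.20 and 0.21. At least as far above the control on all 3 hairpins as F3 were 6.09% of the genes above background on all 4 arrays.

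Tfpi encodes the inhibitor that blocks the complex of tissue factor and factor VIIa, and it was near background. Of its 3 probes, the brightest had relative signals of 0.0338, 0.0495 and 0.1302 on hairpins 1, 2 and 3, against 0.0680 on the shControl array. It was above background on hairpin 3 and on the control, and not well above background on hairpins 1 and 2. Hairpin 3 was 1.91-fold higher than the control. For hairpins 1 and 2 the size is uncertain, and was taken from the higher of the probe's own signal and the lowest signal called above background on that array. By that lowest signal, hairpin 1 was 1.36-fold lower than the control. On hairpin 2 the probe's own signal was the higher (an intensity of 21.5, against a lowest called one of 19.1), and gave 1.37-fold lower. A probe that was not called can thus exceed the lowest called signal, so both sizes are estimates and not bounds. On hairpin 2 the log2 difference was -0.46, with a software error of 0.44. With normexp background correction and quantile normalization the log2 differences of hairpins 1 and 2 were -0.22 and -0.17. The second probe had the same pattern of detection, with 0.0378, 0.0378 and 0.0711 on hairpins 1, 2 and 3, against 0.0568 on the shControl array. By the same rule its estimates were 1.13-fold lower on hairpin 1 and 1.30-fold lower on hairpin 2. The software errors of these log2 differences were 0.51 and 0.47. The third probe was not well above background on any array. Tfpi2, which encodes a related inhibitor also active on plasmin, had 1 probe and an intensity of 3.28 to 4.51 on the shIslr arrays and 4.18 on the shControl array, where no probe under an intensity of 15.01 was called. It was not detectable at this signal.

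Thbd, the gene of thrombomodulin, had relative signals of 3.34, 2.33 and 3.21 on hairpins 1, 2 and 3, against 3.17 on the shControl array. Hairpin 2 was lower than the control by 0.44 on the log2 scale, and hairpins 1 and 3 were within 0.08 of it, which is under the software error of 0.20. The mean log2 difference was -0.12 ± 0.29 (limma adjusted p = 0.983).

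Procr, the gene of the endothelial protein C receptor, which is also a marker of some stem and progenitor cells in mice, had relative signals of 3.16, 6.26 and 7.85 on hairpins 1, 2 and 3, against 5.13 on the shControl array. Hairpin 1 was below the control, and hairpins 2 and 3 were above it. The log2 differences were -0.70, 0.29 and 0.61, with a mean of 0.07 ± 0.68 (limma adjusted p = 0.996). The 2.49-fold range between hairpins was reached by 4.84% of the genes above background on all 4 arrays. Plau and Procr ordered the hairpins in opposite ways: hairpin 1 was highest and hairpin 3 lowest for Plau, and hairpin 3 was highest and hairpin 1 lowest for Procr. The summed relative signal of the 10 endothelial markers was 11.95, 13.1 and 12.2 on hairpins 1, 2 and 3, against 11.6 on the shControl array. Most of that sum came from Kdr and Egfl7. Kdr had 7.96, 7.47 and 7.74 on hairpins 1, 2 and 3, against 7.98 on the shControl array. Egfl7 had 3.69, 5.37 and 4.17 on hairpins 1, 2 and 3, against 3.32 on the shControl array. The part of these markers in the Procr and Thbd values was not tested.

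F13a1, the gene of the catalytic A subunit of factor XIII, which macrophages and platelets also make, had the largest difference of the 9. Its relative signal was 0.244, 0.878 and 0.721 on hairpins 1, 2 and 3, against 1.22 on the shControl array. All 3 hairpins were below the control, hairpin 1 by 5.02-fold, hairpin 2 by 1.39-fold and hairpin 3 by 1.69-fold. The mean log2 difference was -1.19 ± 1.00, 2.28-fold lower in shIslr cells (limma unadjusted p = 0.2, adjusted p = 0.964), and hairpin 1 decides its size: without hairpin 1 the mean was -0.62. On hairpin 1, 3.99% of all genes were at least 2-fold lower. A second F13a1 probe, annotated to the same transcript, was not well above background on any array, so the level rests on 1 of 2 probes.

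Of the 12 macrophage and blood cell markers, the 4 above background on all 4 arrays differed among themselves. Cd68 had relative signals of 0.620, 0.588 and 0.893 on hairpins 1, 2 and 3, against 1.07 on the shControl array. Csf1r had 2.69, 2.47 and 2.36 on hairpins 1, 2 and 3, against 3.09 on the shControl array. Both were lower on all 3 hairpins (50% of the 4, against 24.6% of all genes). None of the 4 was higher on all 3, against 27.6% of all genes. C1qb had 0.119, 0.123 and 0.147 on hairpins 1, 2 and 3, against 0.143 on the shControl array. The summed relative signal of the list was 24.6, 20.6 and 14.97 on hairpins 1, 2 and 3, against 24.5 on the shControl array. Most of that sum came from Itgam, the 1 of the 4 that was above the control on hairpin 1, with 21.1, 17.3 and 11.4 on hairpins 1, 2 and 3, against 20.1 on the shControl array. Of the 5 megakaryocyte and platelet markers, Itga2b was above background on all 4 arrays, and 3 were below it on all 4. Gp1ba was above background on hairpin 2 alone, with a relative signal of 0.0635, and so higher there than on the control. Itga2b was lower on all 3 hairpins, with 0.163, 0.265 and 0.183 on hairpins 1, 2 and 3, against 0.484 on the shControl array. The part of these markers in the F13a1 result was not tested. The genes nearest to F13a1 by the same distance were E330013P04Rik (-2.01, -0.64 and -1.16) and Slc23a3 (-1.91, -0.82 and -1.16).

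**Figure D3:**
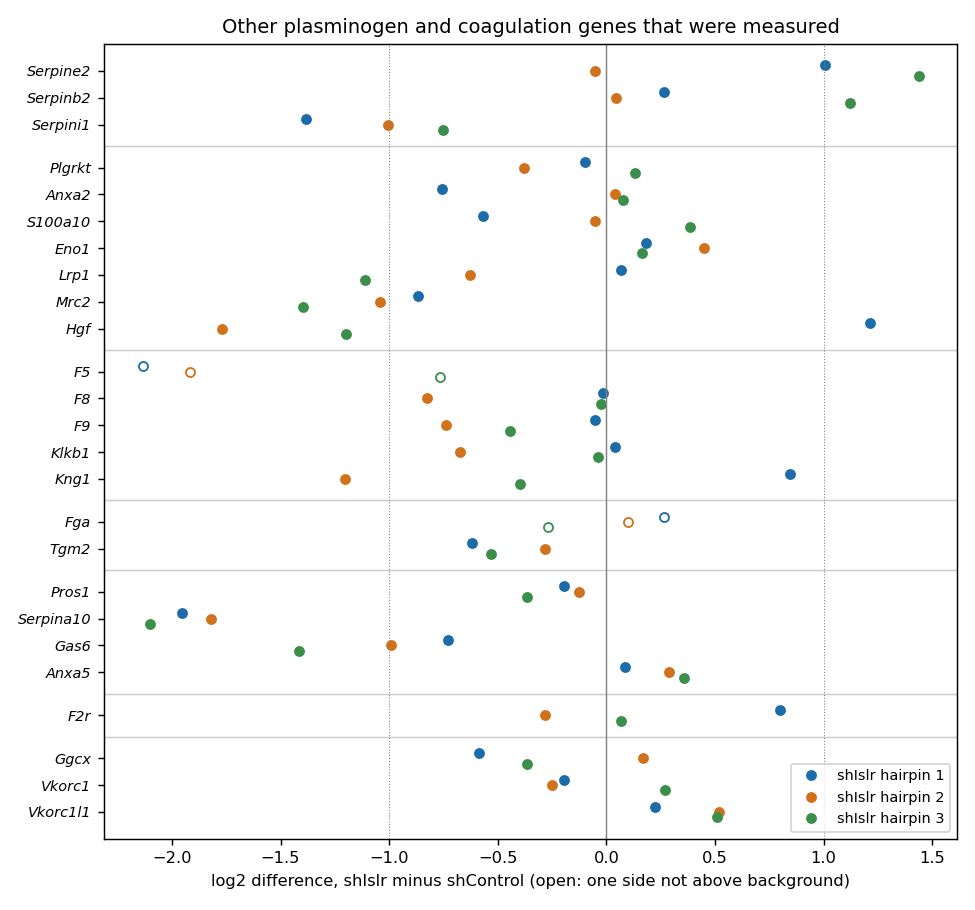
Points give the log2 difference of each shIslr hairpin from shControl for the 25 other plasminogen, coagulation and fibrinolysis genes that were kept, in 7 groups by role, open where 1 side was not above background. Dotted lines mark 2-fold. Serpini1, Mrc2, Gas6 and Serpina10 lie left of 0 on all 3 hairpins.

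The other 49 genes of plasminogen activation, coagulation and fibrinolysis give the setting of these results. They were listed with earlier results of these data known, so their shares are a description only. Of them 25 were kept for the test, and 20 were below background on all 4 arrays with every probe, among them Plg, F2, F7, F10, Fgb, Fgg and F13b. Activators, inhibitors and receptors were thus measured in these cultures, while plasminogen and prothrombin were not detectable at this signal. Of the 25, 4 were higher and 9 lower than the control on all 3 hairpins (16% and 36%), against 27.6% and 24.6% of all genes. None passed limma's test in either direction, 5 had an unadjusted p under 0.05, and the background shares for these are 0.346% and 4.83%. F5, counted among both the 9 and the 5, entered the test through the control array alone. Its hairpin values were below background, and the lowest called signals give an estimate of only 1.03-fold lower. The median mean difference of the 25 was -0.23, against 0.01 over all genes.

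Among the inhibitors, 1 of 3 kept genes was higher on all 3 hairpins (the dim Serpinb2, a urokinase inhibitor gene) and 1 was lower (Serpini1). Among plasminogen and its surface partners 7 genes were kept. The collagen receptor gene Mrc2, whose product binds the urokinase receptor complex, had relative signals of 2.51, 2.22 and 1.74 on hairpins 1, 2 and 3, against 4.58 on the shControl array. All 3 hairpins were below the control, and the mean log2 difference was -1.10 ± 0.27 (limma unadjusted p = 0.0131, adjusted p = 0.723). These values are of the brighter of 2 Mrc2 probes. Averaged over the kept probes, the mean log2 difference was -0.85 (limma adjusted p = 0.895), which is under 2-fold. Anxa2 and S100a10, whose products form a plasminogen-binding complex at the cell surface, were both lowest on hairpin 1. Anxa2 had relative signals of 186, 322 and 332 on hairpins 1, 2 and 3, against 314 on the shControl array. S100a10 had 29.4, 42.0 and 56.7 on hairpins 1, 2 and 3, against 43.5 on the shControl array. Neither pair of groups was separate, and the mean log2 differences were -0.21 ± 0.47 and -0.08 ± 0.48.

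On the coagulation side, the dim gene Serpina10, which encodes an inhibitor of factor Xa, had relative signals of 0.0734, 0.0806 and 0.0662 on hairpins 1, 2 and 3, against 0.284 on the shControl array. It was above background on all 4 arrays, and was the 1 gene of the 25 at least 2-fold lower on all 3 hairpins. So were 1.69% of all genes, and 40 of the 12722 genes tested with the filter on all 4 arrays. Its mean log2 difference was -1.96 ± 0.14 (limma adjusted p = 0.0791). With normexp background correction and quantile normalization it was -0.77 (limma adjusted p = 0.693), which is under 2-fold, and over the 12 other settings the adjusted p ran from 0.0652 to 0.98. Gas6, the gene of a vitamin K-dependent ligand related to protein S, had 10.009, 8.34 and 6.24 on hairpins 1, 2 and 3, against 16.6 on the shControl array. All 3 hairpins were below the control, with a mean log2 difference of -1.05 ± 0.34 (limma unadjusted p = 0.0266, adjusted p = 0.945). The thrombin receptor gene F2r had 27.8, 13.1 and 16.7 on hairpins 1, 2 and 3, against 16.0 on the shControl array, and its groups overlap.

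Some coagulation genes were detected on 1 or 2 arrays. F5, the factor V gene, was above background on the control array alone, at its lowest called intensity of 19.3. Vwf, the von Willebrand factor gene, was not above background on the control array or hairpin 2, and its relative signal was 0.135 on hairpin 1 and 0.434 on hairpin 3. F2rl3, a thrombin receptor gene, was above background on hairpin 3 alone, with a relative signal of 0.121. Proc, the protein C gene, and Serpinc1, the antithrombin gene, were likewise above background on hairpin 3 alone, with 0.0527 and 0.0453; these 2 were named after their values were seen.

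**Figure D4:**
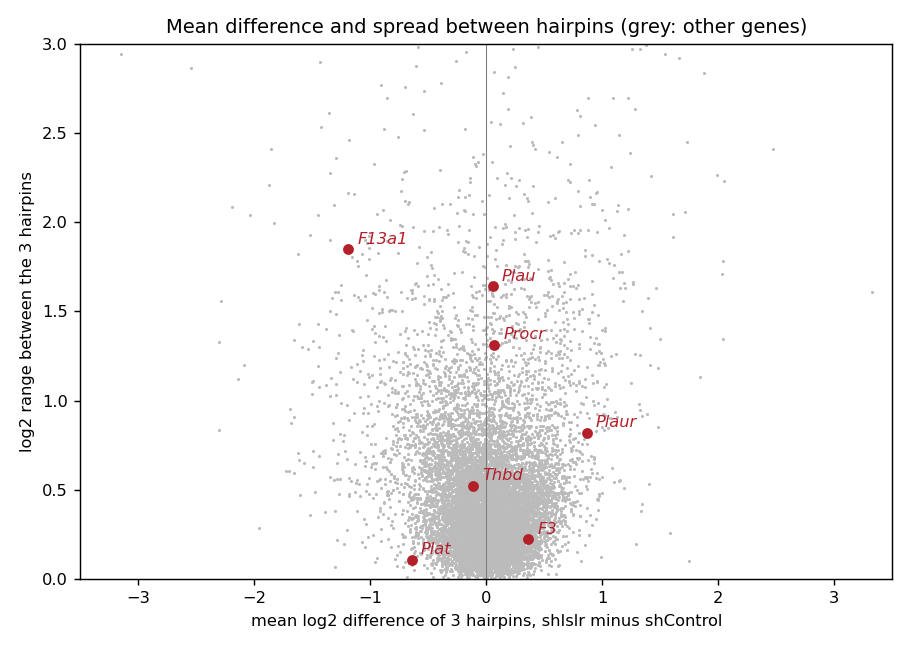
Each grey point is 1 of 12684 genes above background on all 4 arrays, placed by its mean log2 difference (shIslr minus shControl) and by the log2 range between the 3 hairpins, with 32 genes outside the axes. Red points are the 7 members above background on all 4 arrays. Plat and F3 lie low, with ranges of 0.11 and 0.22, while F13a1, Plau and Procr lie high, with ranges of 1.85, 1.64 and 1.31.

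The precision of a single difference was set by the arrays. The software's error estimate was 10% to 10.9% of the signal for the 7 members above background on all 4 arrays, which gives an error of 0.20 to 0.21 for a log2 difference between 2 arrays. Of their 21 differences, 14 were larger than 2 such errors. The same share over all genes was not counted, so whether these members differ from other genes in this was not tested. The differences of a gene also share the control array, so they are not independent. Probes spotted at least 5 times on an array, at intensities from 100 to 5000, had a median SD of 0.06 to 0.07 log2 between spots. Neither measure covers differences between cultures, and the number of arrays limits the precision of every comparison.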

How the data were processed

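Total RNA of 4 MSC cultures was labelled with Cy3 and measured on 4 one-colour arrays, on 1 slide and in 1 scan. Per the file headers, the deposited intensity of each spot is the processed signal of Agilent Feature Extraction 11.5.1.1 (grid build mm9), background-subtracted and detrended. The series table, also deposited, is that intensity times 1 factor per array (2.25, 2.08 and 2.02 for hairpins 1 to 3 and 2.10 for the control), and how the factor was chosen is not given in the sources used here.

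Spots of a probe were averaged as log2, after each array's 75th percentile was subtracted. Accessions were matched to RefSeq, which named 28026 of 55681 probes (27655 had no name). A probe was kept if it exceeded background (the software's flag) in the control or in all 3 shIslr samples (13567 genes), and the brightest kept probe stood for a gene. limma 3.58.1 in R 4.3.3 (lmFit, eBayes, two-sided, Benjamini-Hochberg adjusted p under 0.05) compared 3 hairpins with 1 control, which is assumed to vary like the hairpins. A 2-fold rule on all 3 hairpins stood beside it. The rule for named genes took the 9 members, Islr, and listed genes at least 2-fold off in the mean or 1.5-fold off on all 3 hairpins, with 4 known partners, other cell types' markers, and the 2 nearest genes of members past 2-fold. The members and lists were chosen with earlier results of these data known. A gene of the wider list is not reported here, and the counts leave it out.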

Additional observations from a re-analysis of the deposited data

How the results depend on the processing

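No paired analysis was possible because the control is on 1 array and shares no set of replicate numbers with the hairpins. No member and no gene of the wider list passed limma's test under any of the 12 other settings, and no member was at least 2-fold from the control on all hairpins used. Plat, Plaur, F3 and F13a1 kept the sign of their mean difference in all 12 settings, with ranges of -0.72 to -0.63, 0.69 to 1.1, 0.30 to 0.41 and -1.54 to -0.62. Means near 0 changed sign when a hairpin was left out: Plau ranged from -0.32 (without hairpin 1) to 0.50, with -0.01 without hairpin 2, Tfpi from -0.73 to 0.24 (without hairpin 1), Procr from -0.21 (without hairpin 3) to 0.45, with -0.04 without hairpin 2, Anxa2 from -0.36 to 0.058 (without hairpin 1), S100a10 from -0.31 to 0.17 (without hairpin 1), and F2r from -0.11 (without hairpin 1) to 0.43. Thbd ranged from -0.21 to 0.048, the highest without hairpin 2. With normexp background correction and quantile normalization Tfpi was at 0.00406. Over all genes, the 47 lower by limma became 75 with quantile normalization and 0 with normexp, without a filter, with a filter on all 4 arrays or on at least 1 array, and with an intensity trend, and leaving out 1 hairpin gave 0 to 0. The 32 genes at least 2-fold higher became 5 with normexp, 144 without a filter, 12 and 88 with filters on all 4 arrays and on at least 1 array, and 43 to 86 with 1 hairpin left out. The 229 at least 2-fold lower became 43 with normexp, 40 with the filter on all 4 arrays and 266 to 351 with 1 hairpin left out. The main filter admits a gene through the control array alone, but otherwise needs all 3 hairpins. A gene above background on the control array only can thus enter, and would be likely to read as lower. The genes tested were 13567 in the main setting, 12722 with the filter on all 4 arrays, 14816 with at least 1 array and 21154 without a filter. The cause of these shifts was not tested. No scaling moved the median of all genes by over 0.1. Dim genes such as Tfpi are limited by signal over background.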
